A study of Mus musculus with 40 samples.

Results

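The family of miR-130 and miR-301 was followed in mouse blood through 5 of the 1915 microRNA rows of the count table, taken by exact name: mmu-miR-130a-3p, mmu-miR-130b-3p, mmu-miR-301a-3p, mmu-miR-301b-3p and mmu-miR-130b-5p (written without the mouse prefix where several are compared). The blood came from male C57B/6J mice that were housed singly and bled repeatedly from the retro-orbital sinus, and small RNA was sequenced from mice aged 12, 13.5, 15 or 16.5 months. There were 10 libraries at each age, 40 in all, each made from total blood. The labels name no mutant allele, drug or other treatment at any age, and part of the study's mice learned a water maze while others stayed in the home cage. The labels say neither which libraries belong to which of these nor which libraries come from one mouse. All 40 were therefore treated as separate samples, and the p-values measure the spread between these libraries. The study describes a longitudinal design, and a number in the column names recurs once at each age. The labels do not tie it to a mouse, and results with that number as a block are given in the last paragraph. Per the study's methods, the blood at 12 months preceded any behavioural test and later blood followed the probe tests. Training and bleeding were repeated at each later age. In every comparison between ages, age therefore cannot be told apart from the amount of training, in trained mice, or from earlier bleeding. The question put to the family is how its members changed with age.

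MicroRNAs are cut from a hairpin that gives a pair of strands, called 5p and 3p after the side of the hairpin they come from. The strand kept in an Argonaute protein pairs with messenger RNAs mainly through its seed, bases 2 to 8, and lowers the protein made from them, so microRNAs with one seed share many targets. The family of miR-130 and miR-301 is defined by the seed of its 3p strands. miR-130a is known from haematopoietic and endothelial cells, miR-130b from adipocytes, where it acts on the receptor PPARγ, and the family as a whole from vascular remodelling in the lung.

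The 3p strands are shown because the seed that makes them a family and the bases that tell them apart can be read from them, with the seed in capitals. The sequences and positions are those of RefSeq on GRCm38.p6, which had a mature entry for 4 of the 5 members.
miR-130a-3p, chr2:84741116-84741137, minus strand: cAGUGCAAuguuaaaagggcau
miR-130b-3p, chr16:17124071-17124092, minus strand: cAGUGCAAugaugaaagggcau
miR-301a-3p, chr11:87113054-87113076, plus strand: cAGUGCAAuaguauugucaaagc

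miR-130a-3p and miR-130b-3p were identical at 20 of 22 bases and differed by U11A and A13G (miR-130a-3p first, positions from the 5′ end), so these 2 positions alone separate their reads. miR-301a-3p shared 12 of the first 22 bases with miR-130a-3p and 11 with miR-130b-3p, the first 9 being common to all 3. The seed AGUGCAA stood at bases 2 to 8 of 7 of the 1679 mature mouse microRNAs in the sequence table (0.417%).

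The remaining member, miR-130b-5p, is the opposite strand of the miR-130b hairpin and has a seed of its own. It is shown first with that seed in capitals and then with UUGCACU, the reverse complement of the family seed, in capitals at bases 13 to 19. That motif was held by 9 of 1674 distinct mature sequences (0.538%).
miR-130b-5p, chr16:17124109-17124130, minus strand: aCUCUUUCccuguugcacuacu
miR-130b-5p, family seed complement in capitals: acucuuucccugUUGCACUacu
The whole hairpin, with both strands in capitals, shows how the 5p strand (left) faces the 3p strand (right).
Mir130b, chr16:17124061-17124142, minus strand: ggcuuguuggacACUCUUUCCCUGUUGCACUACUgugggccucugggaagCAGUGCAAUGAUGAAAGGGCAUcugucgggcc

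The family came from 3 chromosomes. The 82 bases of Mir130b lay within 2610318N02Rik, a protein-coding gene on the same strand. They fell in an intron of all 3 of its annotated transcripts that span them. Mir301b lay in an intron of the same gene at chr16:17124400-17124496, with 257 bases between both hairpins. The miR-301a hairpin (Mir301, chr11:87113004-87113089, plus strand) lay within Ska2, whose product helps to hold chromosomes to the spindle. It fell in an intron of both annotated transcripts of Ska2 that span it. Mir130a (chr2:84741115-84741178, minus strand) overlapped no other annotated gene.

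Total counts ran from 2469196 to 21386209 per library, of which the rows of the red-cell microRNA miR-486 held all but 93002 to 1739959. The 15-month libraries were the shallowest as a group, with 114748 to 412457 reads outside miR-486 against 590397 to 1425543 at 12 months. The labelled tissue was checked on its markers. All 4 red-cell and all 4 leukocyte microRNAs listed for the check were read in at least 39 libraries, whereas liver miR-122-5p reached at most 3 reads and brain miR-124-3p at most 1. Muscle miR-133a-3p was read in 39 libraries, with up to 233 reads. The columns of the 13.5-month and 15-month libraries are named in forms of their own, so a difference in library series and a difference in age cannot be told apart there. In whole blood, fewer cells of a type and less RNA per cell also cannot be told apart.

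The members spanned a wide range of abundance. Over the 40 libraries, miR-130b-3p had a median of 407 reads (56 to 1557), miR-130a-3p 254.5 (36 to 927) and miR-130b-5p 248 (30 to 735). miR-301a-3p had a median of 10.5 reads (0 to 50) and miR-301b-3p of 1 (0 to 7). Among the reads of the 4 strands that carry the family seed, miR-130b-3p made up 57.8% ± 5.64 and miR-130a-3p 39.7% ± 5.49 (SD, n = 40), while miR-301a-3p and miR-301b-3p made up 2.17% ± 1.44 and 0.288% ± 0.293. Only miR-130a-3p, miR-130b-3p and miR-130b-5p passed the filter for the main test, more than 100 reads in at least 20 libraries, which left 105 microRNAs. miR-301a-3p was tested among the 345 microRNAs with more than 1 read in at least 20 libraries, and miR-301b-3p passed neither filter.

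**Figure D1:**
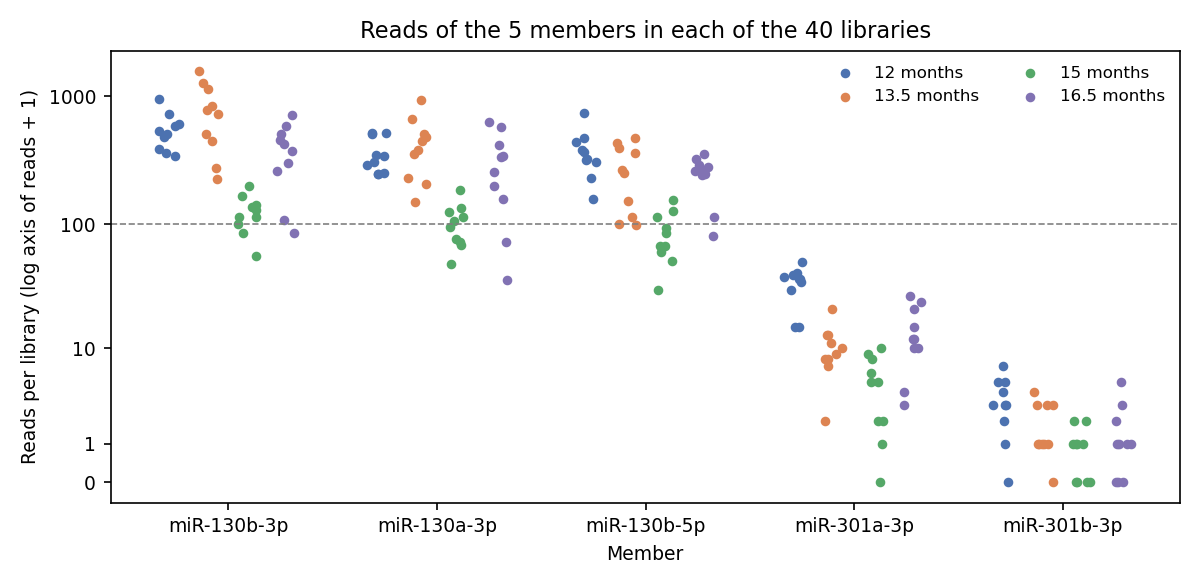
Reads of each member (x axis) in each library, 1 point per library coloured by age, on a log axis of reads + 1; the dashed line marks 100 reads. miR-130b-3p, miR-130a-3p and miR-130b-5p lie around or above the line, the 15-month points lowest among them, while miR-301a-3p stays at or under 50 reads and miR-301b-3p at or under 7.

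mmu-miR-130a-3p was highest at 13.5 months. It had 245 to 519 reads per library at 12 months (median 323.5), 150 to 927 at 13.5 months (median 413.5), 49 to 186 at 15 months (median 101) and 36 to 626 at 16.5 months (median 297.5). Scaled by library with TMM factors, its level was 4.43 ± 0.22 log2 CPM at 12 months, 4.98 ± 0.20 at 13.5, 4.50 ± 0.25 at 15 and 4.83 ± 0.18 at 16.5 months (SD, n = 10 each). The levels at 12 months (4.02 to 4.81) overlapped those at 13.5 months (4.60 to 5.21), although each of the 10 libraries at 13.5 months lay above the 12-month mean. In edgeR's quasi-likelihood test its level differed over age (Benjamini-Hochberg adjusted p = 1.93e-05), as it did for 61% of the 105 microRNAs tested.

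Between pairs of ages, miR-130a-3p rose from 12 to 13.5 months by 0.56 log2 (SE 0.10, 1.47-fold, edgeR adjusted p = 3.43e-05). It fell from 13.5 to 15 months by 0.49 log2 (SE 0.10, adjusted p = 0.000217 by edgeR, 10 of 10 libraries under the 13.5-month mean). All 10 libraries of the oldest age exceeded the 12-month and the 15-month mean, the former by 0.40 log2 on average (SE 0.10, edgeR adjusted p = 0.00405) and the latter by 0.33 (SE 0.11, adjusted p = 0.0163). The order of its levels was therefore 13.5, 16.5, 15 and 12 months, and neither the first pair of neighbours in that order (-0.16 log2, edgeR adjusted p = 0.199) nor the last (0.07, adjusted p = 0.644) passed the test. With library totals alone in place of TMM factors, the rise from 12 to 13.5 months was 0.55 with an edgeR adjusted p = 0.104. With every library thinned to 93002 reads outside miR-486 the differences at 16.5 months were 0.25 (edgeR adjusted p = 0.216) against 12 months and 0.15 (adjusted p = 0.522) against 15 months.

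mmu-miR-130b-3p, the most abundant member, was also highest at 13.5 months. Its reads ran from 341 to 940 at 12 months (median 520), 225 to 1557 at 13.5 months (median 754.5), 56 to 201 at 15 months (median 122) and 85 to 708 at 16.5 months (median 398.5). The levels were 5.04 ± 0.35, 5.76 ± 0.31, 4.80 ± 0.33 and 5.31 ± 0.26 log2 CPM from the youngest to the oldest age (SD, n = 10 each). The 13.5-month libraries (5.19 to 6.28) sat above most of the 15-month ones (4.39 to 5.35), and the groups met only at their edges. It belongs to a list of 7 microRNAs that the study picked partly on these libraries, so its change with age is not independent evidence for that choice.

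miR-130b-3p rose by 0.72 log2 from 12 to 13.5 months (SE 0.14, 1.65-fold, edgeR adjusted p = 9.1e-05), with 10 of 10 libraries above the 12-month mean. The fall from 13.5 to 15 months was -0.97 log2 (SE 0.15, edgeR adjusted p = 8.86e-07). The level at 16.5 months stood between, -0.47 log2 from 13.5 months (SE 0.14, edgeR adjusted p = 0.00675) and 0.50 from 15 months (SE 0.15, adjusted p = 0.00868). In the order 13.5, 16.5, 12 and 15 months, the first pair of neighbours differed, while 16.5 and 12 months (0.25, SE 0.14, edgeR adjusted p = 0.189) and 12 and 15 months (0.25 lower at 15 months, adjusted p = 0.243) did not pass the test. The difference over age had an edgeR adjusted p = 2.15e-06.

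**Figure D2:**
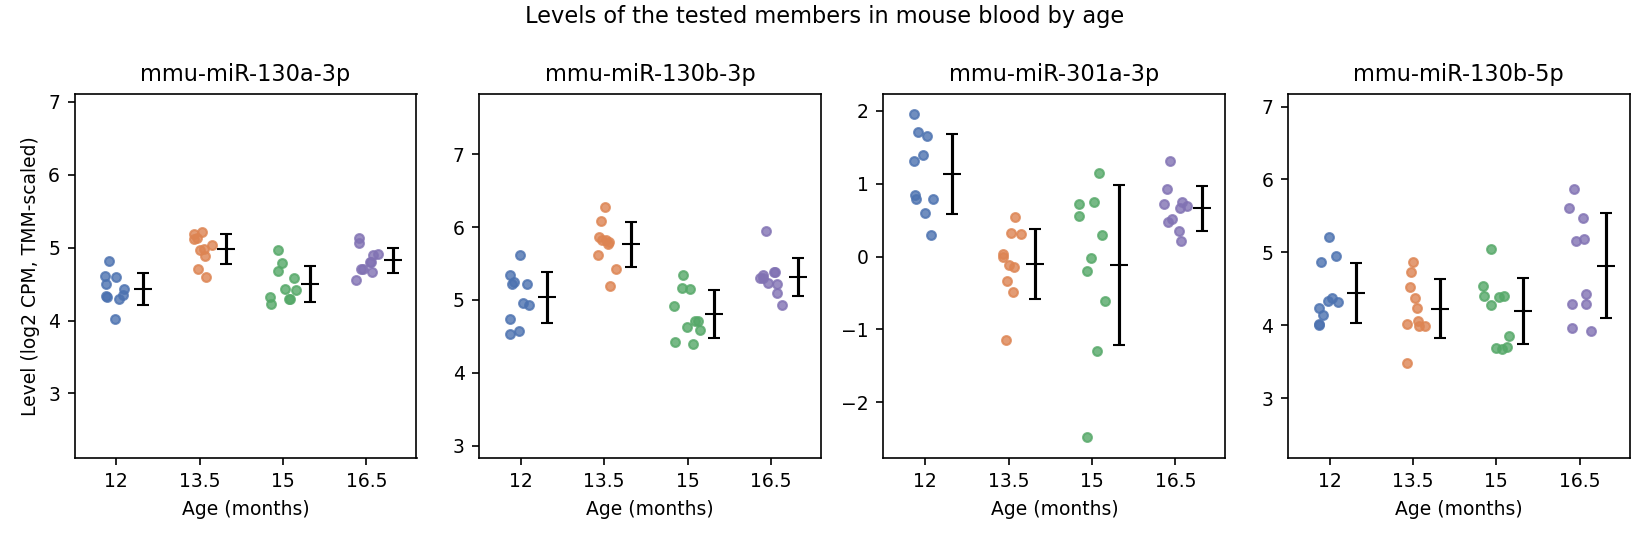
Level of each tested member in log2 CPM (y axis; each panel spans the same number of log2 units) by age in months (x axis), 1 point per library, with the mean and SD of the 10 libraries as a bar to the right. miR-130a-3p and miR-130b-3p are highest at 13.5 months, miR-301a-3p is highest at 12 months and lower at 13.5 months, and miR-130b-5p spreads into 2 sets at 16.5 months.

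mmu-miR-301a-3p, which carries the same seed, fell where miR-130a-3p and miR-130b-3p rose. It had 15 to 50 reads per library at 12 months (median 37), 2 to 21 at 13.5 months (median 9.5), 0 to 10 at 15 months (median 5) and 3 to 27 at 16.5 months (median 12). Its levels were 1.13 ± 0.55, -0.10 ± 0.48, -0.11 ± 1.10 and 0.66 ± 0.31 log2 CPM in order of age (SD, n = 10 each). All 10 libraries at 13.5 months lay under the 12-month mean, and the spread at 15 months was the widest, at a depth where 1 library had no read of it.

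Among the 345 microRNAs of the wider filter, 39.1% differed over age, and miR-301a-3p was one of them (edgeR adjusted p = 6.82e-05). Its change from 12 to 13.5 months was -1.44 log2 (SE 0.25, a 2.72-fold difference, edgeR adjusted p = 4.44e-05), in a comparison that called 15.7% of those 345. The 15-month level was -1.07 log2 from the 12-month one (SE 0.28, edgeR adjusted p = 0.00785, 11.3% of the 345 called), and the oldest libraries exceeded those of 13.5 months by 0.82 (SE 0.27, adjusted p = 0.0208, 21.4% called). The values for 16.5 v 12 months (-0.62, edgeR adjusted p = 0.0907), 15 v 13.5 months (0.38, adjusted p = 0.387) and 16.5 v 15 months (0.45, adjusted p = 0.369) did not pass. At equal depth outside miR-486, 15 v 12 months was -1.07 with an edgeR adjusted p = 0.169 and 16.5 v 13.5 months 0.74 with 0.368.

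The sum of the markers of platelets and endothelium had its highest and lowest medians at the same ages as miR-301a-3p. The summed level of miR-126a-3p and miR-126a-5p, both of which were read in at least 37 libraries, had medians of 37.4, 11.5, 21.5 and 18.8 RPM (counted over the reads outside miR-486) in order of age, where miR-301a-3p had 36.4, 12.9, 16.1 and 22.9. The ranges of that sum were 8.71 to 122 at 12 months, 5.45 to 65.9 at 13.5, 5.46 to 42.3 at 15 and 0 to 35.6 at 16.5 months. By itself miR-126a-3p had medians of 11.5, 5.92, 8.02 and 4.16 RPM, lowest at 16.5 months. For miR-126a-5p they were 24.7, 6.62, 15.6 and 15.4 RPM, lowest at 13.5 months. The red-cell sum of miR-451a, miR-144-3p and miR-144-5p also had its highest median at 12 months and its lowest at 13.5 months (110983 and 51842). Each of its members had its lowest median at 13.5 months as well. The highest was at 12 months for miR-451a and miR-144-5p and at 15 months for miR-144-3p. Left out of that sum was the listed red-cell microRNA miR-486a-5p, with medians of 6.14e+06, 6.87e+06, 1.07e+07 and 6.29e+06 RPM, lowest at 12 months. The leukocyte sum was 51816 at 12 and 44528 at 13.5 months. Within that sum the lymphocyte microRNA miR-150-5p had medians of 3803, 6462, 4609 and 5460 RPM in order of age. It was highest at 13.5 months, as were miR-130a-3p and miR-130b-3p. The other leukocyte microRNAs of the list went the other way. Each of miR-223-3p, miR-142a-3p and miR-142a-5p had its lowest median at 13.5 months (262, 42.8 and 35892 RPM). The highest medians of miR-223-3p and miR-142a-3p were at 12 months (392 and 166 RPM), that of miR-142a-5p at 15 months (49001 RPM). The part of these markers in the members' changes was not tested.

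mmu-miR-301b-3p, whose hairpin neighbours that of miR-130b, passed neither filter and is described by its reads. It had 33 reads over the 10 libraries at 12 months (0 to 7 per library), 18 at 13.5 months (0 to 4), 8 at 15 months (0 to 2) and 14 at 16.5 months (0 to 5). Its mean was 3.41 ± 1.95, 2.32 ± 1.45, 2.66 ± 2.47 and 3.98 ± 5.01 RPM outside miR-486 (SD, n = 10 each), and no change was detectable at this depth (edgeR without a filter on low counts, adjusted p over age = 0.774). With a hairpin in the same gene as miR-130b, it gave 73 reads in all where miR-130b-3p gave 18284.

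Side by side, both 3p strands of the main filter rose from 12 to 13.5 months while miR-301a-3p fell. In that comparison 29.5% of the 105 microRNAs were called, and the median log2 fold change was 0.56 over the 3 main-filter members and 0.01 over all 105. From 13.5 to 15 months miR-130a-3p and miR-130b-3p fell and miR-130b-5p did not pass the test, with 47.6% of the 105 called. At 16.5 v 15 months all 3 main-filter members rose, with 28.6% called. At 16.5 v 13.5 months, where 40% were called, miR-130b-3p fell and miR-130b-5p rose. miR-130a-3p was the one member called at 16.5 v 12 months (23.8% of all called), and none of the 3 was called by edgeR at 15 v 12 months (23.8% called). For that last comparison, DESeq2 also called none of the 3 at the same threshold, and the unadjusted edgeR p was under 0.05 for 0 of the 3. Other settings made calls there. With 1 factor of unwanted variation miR-130b-3p was -0.31 (edgeR adjusted p = 0.0293) and miR-130b-5p -0.35 (adjusted p = 0.0132), and with library totals alone miR-130a-3p was -0.74 (adjusted p = 0.00397), miR-130b-3p -1.07 (adjusted p = 1.72e-05) and miR-130b-5p -1.01 (adjusted p = 6.76e-05).

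**Figure D3:**
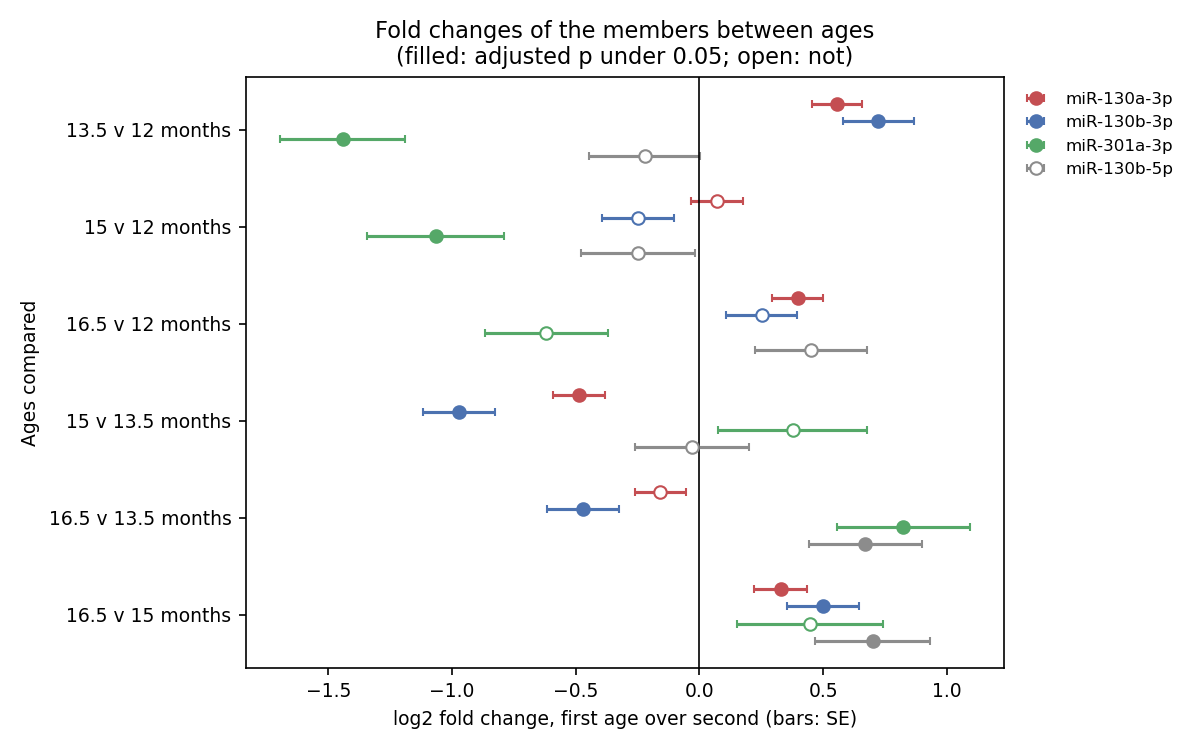
log2 fold change of each tested member (x axis, first age over second) with its standard error in each of the 6 comparisons between ages (y axis); filled points have an adjusted p under 0.05. At 13.5 v 12 months miR-130a-3p and miR-130b-3p lie at 0.56 and 0.72 and miR-301a-3p at -1.44.

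mmu-miR-130b-5p, the other strand of the most abundant member, was not called by edgeR with TMM factors in the comparisons in which its partner changed most. Its reads ran from 157 to 735 at 12 months (median 344), 98 to 472 at 13.5 months (median 259), 30 to 154 at 15 months (median 76.5) and 81 to 351 at 16.5 months (median 260.5). The levels were 4.44 ± 0.42, 4.23 ± 0.41, 4.19 ± 0.45 and 4.82 ± 0.72 log2 CPM (SD, n = 10 each). They overlapped between every pair of ages, and the difference over age had an edgeR adjusted p = 0.0213. At 13.5 v 12 months, where miR-130b-3p rose, the value of miR-130b-5p was -0.22 log2 (SE 0.22, edgeR adjusted p = 0.495), and with 1 factor of unwanted variation it was -0.41 (adjusted p = 0.00306). With library totals alone it was -0.81 at 15 v 13.5 months (edgeR adjusted p = 0.00056). The oldest libraries were the ones with more of it. Against 13.5 months they gained 0.67 log2 (SE 0.23, edgeR adjusted p = 0.0148) and against 15 months 0.70 (SE 0.23, adjusted p = 0.0197), in 8 of 10 libraries each. At equal depth outside miR-486 these gains were 0.61 (edgeR adjusted p = 0.0922) and 0.71 (adjusted p = 0.0678). The former was 0.37 with library totals alone (edgeR adjusted p = 0.161) and 0.59 without a filter on low counts (adjusted p = 0.0581).

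At 16.5 months the levels of miR-130b-5p fell into 2 sets that differed in depth. The 5 libraries with the fewest reads outside miR-486 (93002 to 571969) had 5.15 to 5.87 log2 CPM of miR-130b-5p, and the 5 deeper ones (622707 to 1187944) had 3.92 to 4.43. Over the 10 libraries of this age Pearson's r between depth outside miR-486 and the level of miR-130b-5p was -0.88 (permutation test, adjusted p = 0.0006 over 20 relations) and Spearman's rho -0.96 (permutation adjusted p = 0.0012), and r was -0.94 without the 2 libraries farthest in depth. At 12, 13.5 and 15 months r was -0.06, 0.09 and -0.32, and rho -0.09, 0.31 and -0.15 (permutation test, adjusted p at least 0.529 for r and 0.594 for rho, n = 10). Without the 2 libraries farthest in depth r was -0.34, 0.16 and -0.24. At equal depth outside miR-486 the difference over age had an edgeR adjusted p = 0.0794, with limma voom it was 0.0649, and it was 0.0561 without library b of 16.5 months and 0.0647 without library g, both of the shallower set (libraries of an age are lettered a to j in the order of the number that opens their column names). Without library b, 16.5 v 15 months was 0.60 log2 with an edgeR adjusted p = 0.0512. With limma voom, 16.5 v 13.5 months was 0.39 log2 (adjusted p = 0.0712).

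Because the strands of miR-130b are cut from one hairpin, their ratio within a library needs no scaling factor. There were 1.41 reads of miR-130b-3p per read of miR-130b-5p at 12 months (median; 1.19 to 2.52), 2.82 at 13.5 months (2.14 to 4.40), 1.67 at 15 months (1.02 to 2.02) and 1.44 at 16.5 months (0.81 to 2.54). Every library at 13.5 months had a higher ratio than every library at 15 months, but how many other hairpins separate in this way was not counted. The other ages overlapped with 13.5 months at their edges. As log2 ratios with 0.5 added to each count, the means were 0.60 ± 0.37, 1.54 ± 0.31, 0.61 ± 0.33 and 0.50 ± 0.57 (SD, n = 10 each).

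The strand ratio was tested with limma over the 42 hairpins whose strands both had a median of at least 10 reads, of which 54.8% differed over age. That of miR-130b did so with an adjusted p = 3.68e-05 in limma's test. It rose from 12 to 13.5 months by 0.95 log2 (SE 0.19, 1.93-fold, limma adjusted p = 0.000276, 10 of 10 libraries), where 14.3% of hairpins were called. There miR-130b ranked 2 of 42 by size of rise and 5 of 42 by size of change in either direction. It fell from 13.5 to 15 months by 0.93 log2 (SE 0.19, limma adjusted p = 0.000171, 40.5% called) and stood 1.05 log2 under 13.5 months at 16.5 months (-1.05, SE 0.19, adjusted p = 3.31e-05, 38.1% called). By size of change, the differences from 13.5 months ranked 13 of 42 at 15 months and 9 of 42 at 16.5 months. Among 12, 15 and 16.5 months the differences were 0.01, -0.10 and -0.11 log2 (SE 0.19 each), with limma adjusted p-values of at least 0.639. The higher share of the 3p strand was thus seen at 13.5 months, where the log2 ratio ran from 1.10 to 2.14. At 16.5 months it ranged from -0.30 to 0.21 in the 5 shallower libraries and from 0.79 to 1.35 in the 5 deeper ones. Its Spearman's rho with depth outside miR-486 was 0.93 there (permutation adjusted p = 0.0028 over 20 relations). Pearson's r was 0.74 (permutation adjusted p = 0.0606), and 0.90 without the 2 libraries farthest in depth. At 12, 13.5 and 15 months r was -0.30, 0.37 and -0.19 (permutation adjusted p at least 0.475). The part of depth in the lower ratio at 16.5 months was not tested.

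**Figure D4:**
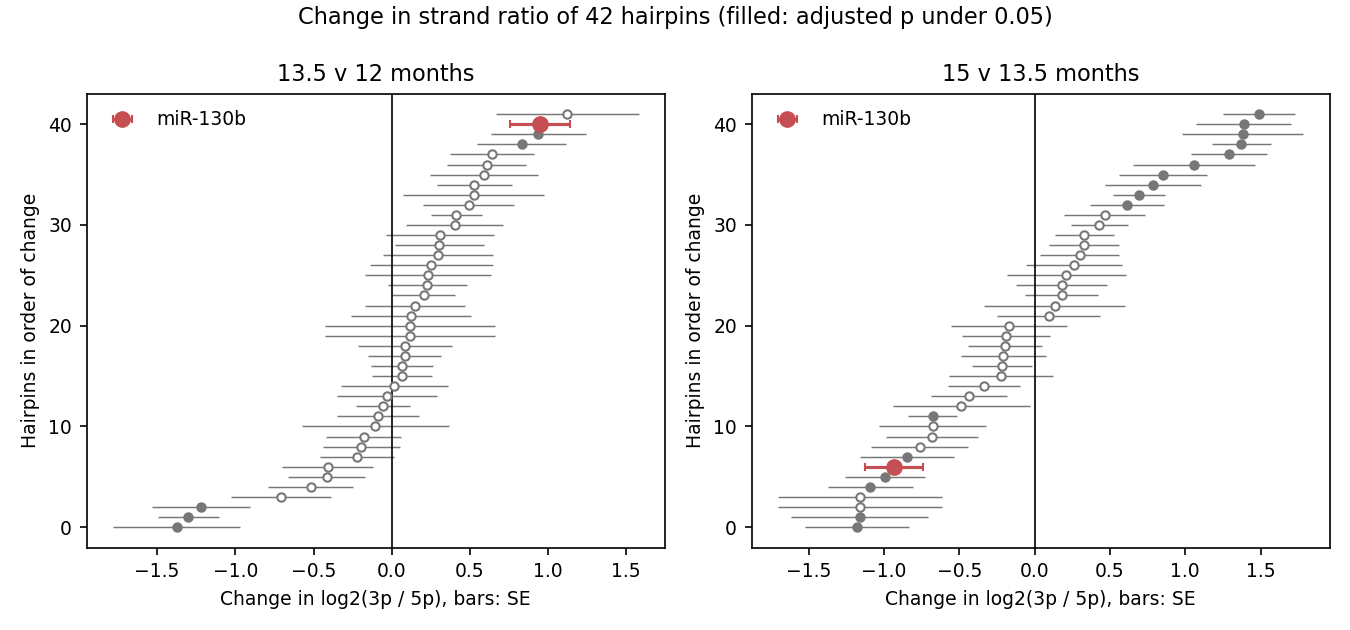
Change in log2(3p / 5p) with its standard error (x axis) of the 42 hairpins tested, in order of change (y axis), for 13.5 v 12 months (left) and 15 v 13.5 months (right); filled points have a limma adjusted p under 0.05 and miR-130b is in red. miR-130b lies near the upper end on the left (0.95) and among the lowest on the right (-0.93).

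Ratios between members gave 36 comparisons, 6 pairs of the 4 members with a median of at least 10 reads in 6 pairs of ages. Of these, 14 had an adjusted p under 0.05 (two-sided permutation test with 100000 resamples, Benjamini-Hochberg over the 36). The pairs share members, so the 14 are not separate results, and the share called among ratios of other microRNAs was not computed. The ratio of the closest relatives was called in 1 of its 6 comparisons. There were 0.653 reads of miR-130a-3p per read of miR-130b-3p at 12 months (median; 0.490 to 0.879), 0.587 at 13.5 months (0.401 to 0.762), 0.876 at 15 months (0.607 to 1.12) and 0.719 at 16.5 months (0.427 to 0.991). It rose from 13.5 to 15 months by 0.48 log2 (SE 0.13, 1.40-fold, permutation adjusted p = 0.00846), with 10 of 10 libraries at 15 months above the 13.5-month mean.

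The ratios of miR-130a-3p and miR-130b-3p to miR-301a-3p had their highest medians at 13.5 months, with ranges that overlapped those at 12 months. There were 13.8 reads of miR-130b-3p per read of miR-301a-3p at 12 months (median; 9.39 to 34.3) and 72.8 at 13.5 months (26.5 to 179), followed by 25.2 at 15 months (13.6 to 113) and 28.0 at 16.5 months (19 to 36.8). The rise from 12 to 13.5 months was 2.09 log2 (SE 0.34, 4.25-fold, permutation adjusted p = 0.00072), with 10 of 10 libraries above the 12-month mean. For miR-130a-3p over miR-301a-3p the median ratio went from 10.6 to 39.5 and the rise was 1.91 log2 (SE 0.27, 3.77-fold, permutation adjusted p = 0.00072). Both ratios then fell from 13.5 to 16.5 months, by 1.37 (SE 0.27, permutation adjusted p = 0.00108) and 1.08 log2 (SE 0.25, permutation adjusted p = 0.00144). With counts of miR-301a-3p this low, the size of these ratios depends on the 0.5 added to each count.

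Compared with 12 months, miR-130a-3p over miR-301a-3p was still higher at 15 months by 1.22 log2 (SE 0.38, permutation adjusted p = 0.0114) and at 16.5 months by 0.84 (SE 0.24, permutation adjusted p = 0.0114). For miR-130b-3p over miR-301a-3p, 16.5 v 12 months (0.72, SE 0.24) and 15 v 13.5 months (-1.18, SE 0.40) both had a permutation adjusted p = 0.0267. With 2 in place of 0.5 added to each count the former was 0.59 with 0.0604, and without library a of 13.5 months the latter was -1.02 with 0.0512 (permutation tests).

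Beside its partner strand, miR-130b-5p entered 2 of the called ratios. Its ratio with miR-301a-3p (miR-130b-5p over miR-301a-3p) was called only at 13.5 v 12 months among the 6 comparisons, at 1.14 log2 (SE 0.39, permutation adjusted p = 0.0267), and that of miR-130a-3p over miR-130b-5p also only there, at 0.77 log2 (SE 0.22, permutation adjusted p = 0.0114). At 13.5 months 10 and 9 of 10 libraries lay above the 12-month mean of the respective ratio. The former missed the threshold without library a or b of 12 months or library a of 13.5 months (0.99 to 1.02 log2).

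**Figure D5:**
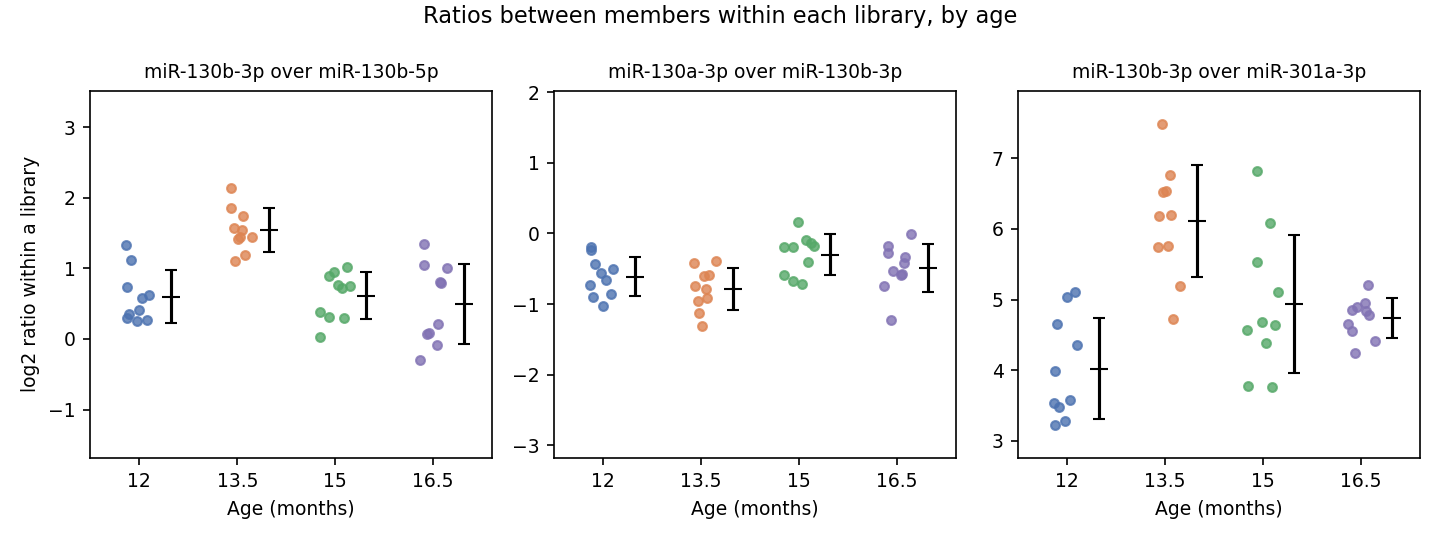
log2 ratio of 2 members within each library (y axis; each panel spans the same number of log2 units) by age in months (x axis), 1 point per library, with the mean and SD of 10 libraries as a bar to the right. The ratio of the miR-130b strands and that of miR-130b-3p over miR-301a-3p are highest at 13.5 months (means 1.54 and 6.11), while miR-130a-3p over miR-130b-3p has its highest mean at 15 months (-0.30).

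The remaining strands of the family hairpins were almost unread. miR-130a-5p had 3 reads in all 40 libraries together, miR-301a-5p 30 and miR-301b-5p 0, against 9665 of miR-130b-5p, so among the family hairpins miR-130b was the one with both strands in quantity. miR-301a-5p and miR-301b-5p hold UUGCACU at bases 13 to 19 as miR-130b-5p does. The other microRNAs of the table with the family seed, miR-130c, miR-721, miR-6341 and miR-6389, were listed at 0 reads in all 40 libraries, which allows up to 0.114 RPM outside miR-486 over all libraries (3 counts, counting error only).

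Over the 40 libraries, the levels of miR-130a-3p and miR-130b-3p had a Pearson r of 0.70 (Spearman's rho 0.72), and 0.40 as deviations from their age means. The strands of miR-130b were less alike over all libraries (r = 0.37, rho = 0.35) than as deviations within ages (r = 0.62). miR-130a-3p and miR-130b-5p had r = -0.12. These values share libraries and scaling factors and are given as descriptions, with no p.

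Among the 104 other microRNAs of the main filter, the level most like that of miR-130b-3p was that of miR-181b-5p (r = 0.84, rho = 0.87, 0.61 within ages, 0.83 without the 2 libraries farthest from the median), followed by let-7d-5p (0.76, and 0.76 within ages) and miR-320-3p (0.75, and 0.74 within ages). For miR-130a-3p they were miR-181b-5p (r = 0.78, 0.51 within ages), miR-181d-5p (0.74, 0.56 within ages) and miR-181a-5p (0.72, 0.44 within ages). For miR-130b-5p they were other microRNAs altogether, miR-25-5p (r = 0.85, 0.84 within ages), miR-423-5p (0.84, 0.90 within ages) and miR-486b-3p (0.83, 0.85 within ages). No microRNA was among the 3 nearest of both miR-130b-3p and miR-130b-5p.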

How the data were processed

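Small RNA libraries of total blood (TruSeq Small RNA kit, single-end reads on a HiSeq2000) were available for 40 samples, 10 at each of 4 ages. Per the study's methods, the authors trimmed adapters with cutadapt, discarded reads under 18 bases and counted reads with miRDeep2 against mm10 and miRBase 21, allowing 2 bases upstream and 5 downstream of the mature position, and summed the counts of a microRNA with several loci. The deposited counts were used as they are. A second deposited table of normalized values was not used. Ages were taken from the labels and matched to the columns by the age in their names.

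Members were matched by the name before the accession. The members and lists were chosen with earlier results of these data known. The named microRNAs were the 5 members, microRNAs with the same seed, the other strands of the member hairpins and, for each member past the main filter, the 3 microRNAs with the highest Pearson r, beside listed markers of red cells, leukocytes, platelets and endothelium, liver, muscle and brain. Tests used edgeR 4.0.16 (quasi-likelihood, TMM factors, all 40 libraries in one fit) with Benjamini-Hochberg adjustment over 105 microRNAs with more than 100 reads in at least 20 libraries, or over 345 with more than 1 read in at least 20. Levels are log2 CPM with a prior count of 2. Strand ratios were fitted with limma 3.58.1 on log2 ratios of counts + 0.5. Member ratios were compared with a two-sided permutation test (SciPy 1.17.1, 100000 resamples; the smallest p possible is 2e-05). The scripts were tested on simulated counts. Alternatives were other scalings, filters and tests (DESeq2 1.42.0, limma voom), thinning to equal depth outside miR-486, a factor of unwanted variation, and leaving out each library. The limit given for a count of 0 covers counting error only. The miR-486a and miR-486b rows hold the same counts, so their reads enter the totals more than once.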

Additional observations from a re-analysis of the deposited data

Results flagged for a closer look

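Of 40 groups of 10 libraries examined for a value far from the rest, 2 held one, where chance gives about 1 in 20. Both came from library g of 16.5 months, the shallowest of all with 2469196 counts and 93002 outside miR-486. Its level of miR-130b-3p, 5.94 log2 CPM, was the highest at that age and lay apart from the next at 5.39. Its log2 ratio of miR-130a-3p over miR-301a-3p, 3.02, was the lowest at that age, the next being 3.91. At 16.5 months the level of miR-130b-3p had a Pearson r of -0.83 with log2 depth outside miR-486 (permutation test, n = 10, p = 0.00348, adjusted p = 0.0348 over 20 relations) and a Spearman's rho of -0.59 (permutation p = 0.0813, adjusted 0.325). Without the 2 libraries farthest in depth r was -0.51.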

How the results depend on the processing

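Each called difference kept its direction under every alternative run on it. The changes of miR-130b-3p at 13.5 v 12 and at 15 v 13.5 months also kept an adjusted p under 0.05. That of miR-301a-3p at 13.5 v 12 months did as well. So did the 3 called changes of the miR-130b strand ratio, which had fewer alternatives. These were a median of at least 50 reads in both strands, 2 added to each count, the block on the column number and leaving out each library. No ratio was rerun at equal depth. With library totals alone the median log2 fold change of all tested microRNAs was -0.84 (15 v 12 months), -0.81 (15 v 13.5) and 0.64 (16.5 v 15), against -0.063, -0.015 and 0.049 with TMM factors. The following lost the call, and the cause was not tested. With library totals alone: miR-130a-3p at 13.5 v 12 (0.55, adjusted p = 0.104) and 16.5 v 12 months (0.23, 0.534), miR-130b-5p (0.37, 0.161) and miR-301a-3p (0.69, 0.219) at 16.5 v 13.5 months. Without a filter: miR-130a-3p at 16.5 v 12 (0.33, 0.301) and 16.5 v 15 months (0.37, 0.282), miR-130b-3p at 16.5 v 15 months (0.53, 0.0545), miR-130b-5p (0.59, 0.0581) and miR-301a-3p (0.82, 0.0751) at 16.5 v 13.5 months. At equal depth: miR-130a-3p at 16.5 v 12 (0.25, 0.216) and 16.5 v 15 months (0.15, 0.522), miR-130b-5p at 16.5 v 13.5 (0.61, 0.0922), 16.5 v 15 months (0.71, 0.0678) and over age (0.0794), miR-301a-3p at 15 v 12 (-1.07, 0.169) and 16.5 v 13.5 months (0.74, 0.368). With miR-486 left out miR-130a-3p at 16.5 v 15 months was 0.25 (0.0564). In a fit of 2 ages only it was 0.25 (0.0545) and miR-130b-5p there 0.64 (0.0947). With limma voom miR-130b-5p had 0.0649 over age and 0.39 (0.0712) at 16.5 v 13.5 months.

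Differences that were not called changed sign in some settings. miR-130a-3p at 15 v 12 months was -0.74 with library totals alone and -0.038 without a filter. miR-130b-5p at 15 v 13.5 months was 0.088 with median-ratio factors, 0.066 without miR-486, 0.088 with DESeq2, 0.056 with 1 factor of unwanted variation and 0.070 in a fit of both ages only, and miR-301a-3p there was -0.32 with library totals alone. With 2 in place of 0.5 added to the counts, the ratios to miR-301a-3p at 16.5 v 15 months became 0.0032 for miR-130a-3p, 0.19 for miR-130b-3p and 0.29 for miR-130b-5p. The ratio of miR-130b-3p to miR-301a-3p at 16.5 v 12 months was 0.59 (adjusted p = 0.0604) in that setting, and a rank-based permutation test of its 0.72 gave 0.0709.

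Leaving out each library in turn lost calls of these results. miR-130b-5p over age had an adjusted p from 0.0024 to 0.065 (lost without library b or g of 16.5 months), and at 16.5 v 15 months from 0.59 to 0.82 log2 (lost without b). The ratios to miR-301a-3p ran from 0.63 to 0.83 for miR-130b-3p at 16.5 v 12 months (lost without library a, b, d or f of 12 months), from -1.39 to -1.02 at 15 v 13.5 months (lost without library a of 13.5 months) and from 0.99 to 1.30 for miR-130b-5p at 13.5 v 12 months (lost without library a or b of 12 months or a of 13.5 months). Of results that were not called, these changed sign with 1 library left out: miR-130b-5p at 15 v 13.5 months (-0.15 to 0.14), the miR-130b strand ratio at 15 v 12 months (-0.033 to 0.094), miR-130a-3p to miR-130b-5p at 16.5 v 12 months (-0.11 to 0.15), and, at 16.5 v 15 months, miR-130b-3p (-0.33 to 0.014) and miR-130b-5p (-0.18 to 0.095) to miR-301a-3p.

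The column names open with a number that recurs once at each age. Samples with the same number did not as a rule deviate together. Of 60 same-number pairs between ages, 24 had r over 0.1 (range -0.87 to 0.86, median -0.03). In 4 of the 60 a sample correlated best with its own number. These correlations cannot show whether a number stands for 1 mouse, because libraries also differ in depth and in their share of miR-486. With a replicate block on that number, chosen after seeing the data, the pairing left miR-130b-3p at 0.73 at 13.5 v 12 and -0.96 at 15 v 13.5 months. Of the other called results, 4 ratios lost the call: miR-130a-3p to miR-130b-5p at 13.5 v 12 months (0.77, adjusted p = 0.0571), miR-130a-3p (0.84, 0.0511) and miR-130b-3p (0.72, 0.0527) to miR-301a-3p at 16.5 v 12 months, and miR-130b-5p to miR-301a-3p at 13.5 v 12 months (1.14, 0.0571). Depth limits the members with few reads, miR-301a-3p (median 10.5 per library) and miR-301b-3p (median 1).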
